A study of Mus musculus with 4 samples.

Results

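The genes described here are 47 mouse splicing factor genes whose symbols begin with Hnrnp, Srsf, Snrp, Sf3a or Sf3b. They were taken from 18193 genes that had at least 1 probe set annotated to them alone (a probe set is the array's unit of measurement, several short probes for 1 transcript). They comprised 19 Hnrnp genes, 10 Srsf genes, 9 Snrp genes and 9 Sf3a and Sf3b genes, on 139 probe sets of 45037. Each gene was represented by its brightest probe set. Another 16 probe sets carry the name of such a gene together with that of at least 1 other gene and were left out, so Hnrnpa3, Snrpa, Snrpd1 and Snrpd2 were not analysed here. Srsf7 had no probe set of its own in the annotation used and was not analysed either.

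RNA came from neuroepithelial cells, the dividing precursors of forebrain neurons and glia, taken from the telencephalon of ICR mouse embryos and grown with basic FGF on polyornithine and fibronectin. The E14.5 group was isolated at embryonic day 14.5 and kept in culture for 4 days (2 arrays), and the E11.5 group was isolated at embryonic day 11.5 and kept for 1 day (2 arrays). The study, by its title, looked for genes that hold back astrocyte differentiation at midgestation. Embryonic age and days in culture changed together, so their effects cannot be told apart. Nothing in the labels says that replicates came from separate cultures or animals, so the distance between the arrays of a group may be technical. A p-value or SE here reflects no more than such distances. They are those of the gene's own arrays and, through moderation in limma (the program used for the tests), those of probe sets of like signal. The prior had 7.99 degrees of freedom and the arrays 2, so the larger part of each variance came from other probe sets.

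Introns are removed from pre-mRNA by the spliceosome, which is built on each intron from small nuclear ribonucleoproteins (snRNPs). The Snrp genes encode proteins of these particles, among them the Sm proteins that form a ring around the small nuclear RNA. Sf3a and Sf3b proteins belong to the U2 snRNP, which recognises the branch point near the 3' end of an intron. SR proteins (Srsf) have a domain rich in arginine and serine and mostly favour the inclusion of exons to which they bind. Heterogeneous nuclear ribonucleoproteins (Hnrnp) coat nascent transcripts and often act against SR proteins. Many SR and hnRNP genes limit their own expression by splicing their transcripts into forms that are degraded.

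The 2% trimmed mean of an array lay at 154 and 103 for E14.5 and at 187 and 252 for E11.5, and each array was multiplied by 1 factor to reach a common value, so higher and lower are meant against an array's average. The ratio of 3' to 5' control probe sets of Gapdh, a measure of RNA integrity, was 0.825 and 0.879 at E14.5 and 0.806 and 0.808 at E11.5. For beta-actin it was 1.10 and 1.14 at E14.5 and 1.14 and 1.11 at E11.5, and the groups overlapped. Progenitor markers had summed scaled signals of 27258 and 28861 at E14.5 and 20914 and 19233 at E11.5: of the 8, Hes5, Sox2 and Fabp7 were higher and Sox1 and Pax6 lower. With 2 arrays per group, the number of arrays limits the precision of every value.

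At E14.5, 10 of the 46 splicing factor genes that could be tested were lower and none was higher. Across all 12952 genes tested, 13.6% were called lower and 14.3% higher, together 27.8%, by the same rule (limma, Benjamini-Hochberg adjusted p under 0.05 over all probe sets). In numbers these were 1850 genes higher and 1756 lower, and 255 and 2175 on the values as deposited, without scaling, where 11 splicing factor genes were lower and 0 higher. At an unadjusted p under 0.05 the counts for splicing factors were 15 lower and 0 higher in limma, beside 19.4% lower and 20.6% higher over all genes. The 10 genes that fell were Snrpa1, Snrpb2 and Snrpb, Srsf10, Srsf1 and Srsf2, Sf3a3 and Sf3b3, and Hnrnph3 and Hnrnpd. At the brightest probe set all were modest changes: mean scaled signals at E14.5 were 0.511 to 0.741 times those at E11.5, and none reached a 2-fold difference on the log2 scale. Dimmer probe sets of Snrpa1 (-1.16) and Srsf2 (-1.02 and -1.13) fell by more than 2-fold. On the log2 scale, with E11.5 subtracted from E14.5, the median was -0.23 over the 46 genes and 0.03 over all tested genes. Of the 46 differences, 36 lay below 0, against 47.6% of all tested genes. The splicing factor genes were brighter, with a median scaled signal of 1794 against 219 over all tested genes. Their median SE was 0.129 against 0.192. Shares over all genes are thus not matched for signal or precision. In 28 of the 46 genes both E14.5 arrays were below both E11.5 arrays, and in 3 they were above. Over all tested genes, the E14.5 arrays were both below in 31.0% and both above in 34.6%.

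Several calls depended on the variance model and on single arrays. Without the trend of variance on signal 2 of the 10 remained (Snrpa1 and Srsf10), without a filter on low values 6, and without E14.5 replicate 2 only 4 (Hnrnph3, Sf3a3, Snrpa1 and Srsf10), while quantile normalization of the arrays gave 19 lower. Without E11.5 replicate 1 there were 7 lower and 1 higher, the U2 snRNP gene Sf3b5.

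**Figure D1:**
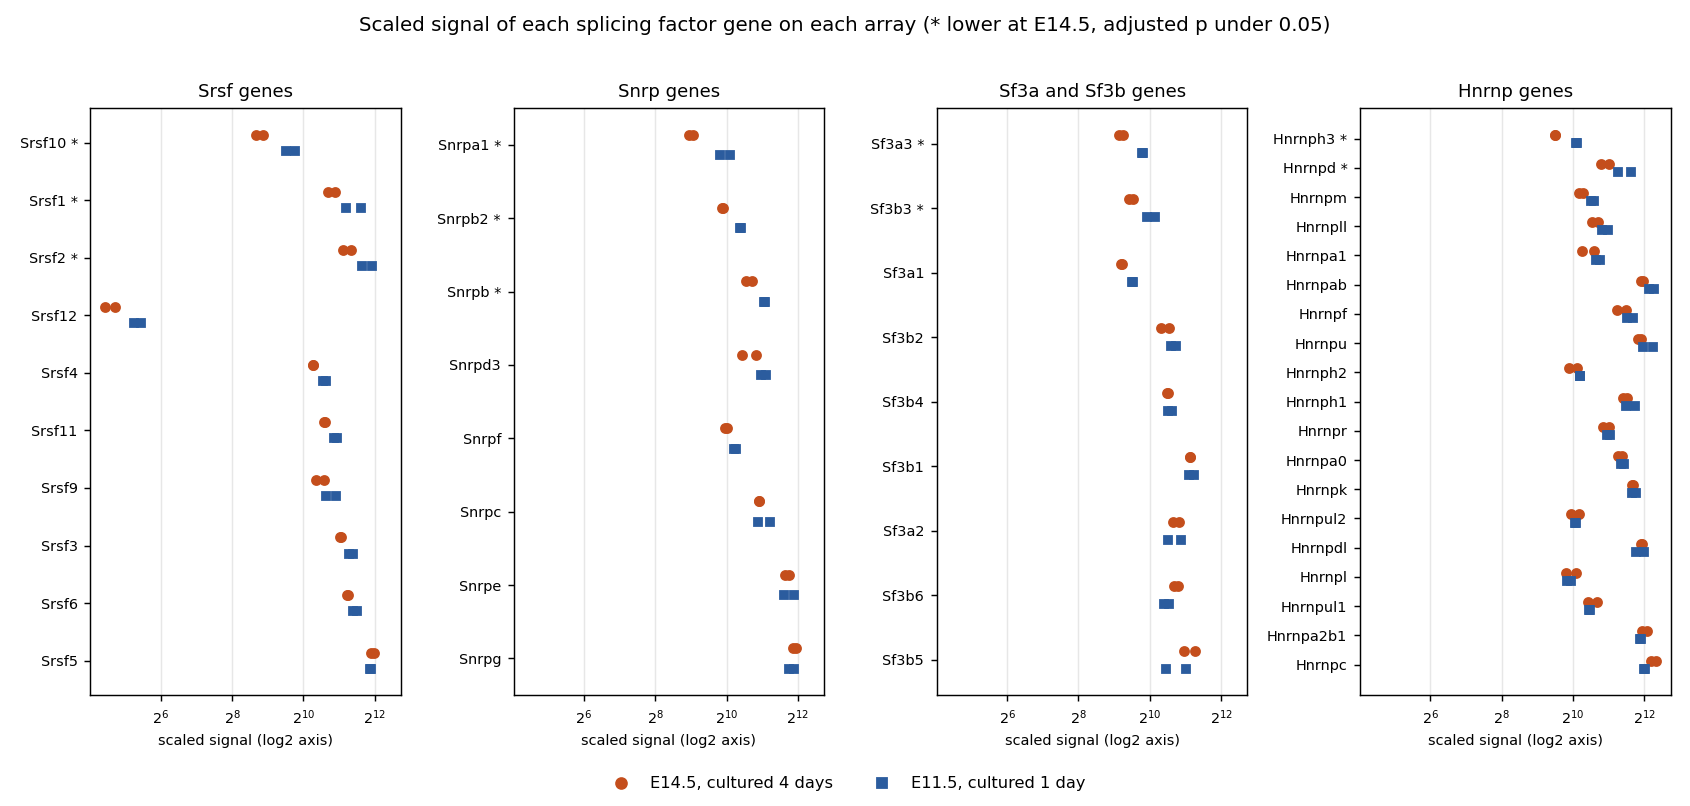
Scaled signal (log2 axis) of the brightest probe set of each of the 46 tested genes, with 2 points per group: orange circles are E14.5 arrays, blue squares E11.5 arrays, and an asterisk marks the 10 genes called lower at E14.5. For Snrpa1 the E14.5 arrays sit at 530.0 and 492 and the E11.5 arrays at 1096 and 903, whereas for Srsf5 all 4 arrays lie between 3722 and 4013.

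Among the snRNP proteins, 3 of 8 tested Snrp genes were lower (37.5%, against 13.6% of all tested genes). Snrpa1 encodes the A' protein of the U2 snRNP. It had scaled signals of 530.0 and 492 on the E14.5 arrays, against 1096 and 903 on the E11.5 arrays. The groups were well apart, and its log2 difference of -0.94 ± 0.15 (moderated SE, with 2 arrays in each group here and throughout) was the most negative of the 46 genes (adjusted p = 0.0012). All 3 of its probe sets fell, by 0.75 to 1.16 on the log2 scale. Snrpb2 encodes the B'' protein, which binds the U2 RNA together with A'. Its signals were 938 and 953 at E14.5 and 1368 and 1322 at E11.5 (-0.50 ± 0.12, adjusted p = 0.015). Replicates lay much closer together than the groups did, but the call was lost without either E14.5 array (-0.49 and -0.51). The other tested probe set of Snrpb2 gave -0.53 ± 0.25, with E11.5 arrays far apart (1545 and 831) and groups that overlapped, and did not pass.

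Snrpb encodes the Sm proteins B and B', components of the ring shared by most spliceosomal snRNPs. It had signals of 1688 and 1492 at E14.5 and of 2157 and 2131 at E11.5 (-0.43 ± 0.12, adjusted p = 0.030), and its other tested probe set gave -0.15 and did not pass. Leaving out E11.5 replicate 1 (-0.42) or leaving out E14.5 replicate 2 (-0.34) ended the call of Snrpb. The other Sm genes measured did not pass either. Snrpd3 had the values 1817 and 1375 at E14.5 and 2189 and 2008 at E11.5 (-0.40 ± 0.15, adjusted p = 0.081). Under quantile normalization Snrpd3 was called lower. Snrpf had a difference of -0.24 ± 0.13, and Snrpe and Snrpg had differences of -0.05 ± 0.13 and 0.08 ± 0.12. Snrpd3 was called lower once E14.5 replicate 1 (-0.60) or E11.5 replicate 2 (-0.47) was left out. Snrpc, a U1 snRNP protein, had 1923 and 1931 at E14.5 and 2396 and 1878 at E11.5, with groups that overlapped (-0.14 ± 0.14). The imprinted gene Snrpn, a neuronal relative of Snrpb, could not be tested: its 1 unshared probe set had 4.78 and 13.5 at E14.5 and 7.46 and 15.9 at E11.5, under the filter of 27.3.

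SR protein genes had a median difference of -0.31, with 3 of 10 lower and 9 of 10 below 0. Over all tested genes these shares were 13.6% and 47.6%. Srsf10, a splicing repressor in its dephosphorylated form, had 471 and 407 at E14.5 and 724 and 872 at E11.5. This was the largest fall of the family (-0.84 ± 0.15, adjusted p = 0.0031). Of its 4 probe sets 3 were called lower and the fourth had a difference of -0.46. Srsf1, the SR protein first known as SF2/ASF, had 1909 and 1667 at E14.5 and 3133 and 2327 at E11.5 (-0.59 ± 0.16, adjusted p = 0.020). The groups did not overlap, but the E11.5 arrays differed more from each other than the E14.5 arrays did, and the call of Srsf1 needed E11.5 replicate 1 (-0.38 when it was left out) and also E14.5 replicate 2 (-0.50). Counted by probe set, 5 of 6 tested probe sets of Srsf1 were called lower.

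Srsf2, known as SC35, had 2569 and 2226 at E14.5 and 3855 and 3174 at E11.5 at its brightest probe set (-0.55 ± 0.14, adjusted p = 0.017), and its call was lost without E14.5 replicate 2 (-0.44). A pair of dimmer probe sets gave steeper falls, -1.02 ± 0.14 and -1.13 ± 0.15, while a faint one gave 0.20 ± 0.26 and did not pass. Srsf3, the smallest SR protein, did not pass at its brightest probe set, with 2124 and 2090 at E14.5 and 2501 and 2668 at E11.5 (-0.29 ± 0.12, adjusted p = 0.10). For Srsf3, however, 3 dimmer probe sets were called lower (-0.85 to -0.43). Srsf6 had -0.22 ± 0.12 at the brightest and 2 other probe sets lower (-0.48 and -0.42). Its remaining probe set, with groups that overlapped, gave 0.25 ± 0.16 and did not pass. Srsf4 (-0.32 ± 0.12), Srsf11 (-0.31 ± 0.12) and Srsf9 (-0.29 ± 0.14) did not pass. Under quantile normalization Srsf3, Srsf4, Srsf6 and Srsf11 were called lower. Srsf5 differed by less than its error, with 4013 and 3816 at E14.5 and 3722 and 3817 at E11.5 (0.05 ± 0.11). Srsf12, dim on every array (21.5 and 26.5 at E14.5, 43.2 and 37.7 at E11.5), had -0.54 ± 0.34.

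Promoters of Snrpa1 and Srsf10, which had the steepest falls, and of Srsf1 and Srsf2 are shown because these genes fell together. RefSeq (GRCm38.p6) gave a start for 42 of the 47 genes, 9 of them among the 10 called lower. Each sequence below is the 250 bases before an annotated transcript start, which for Snrpa1 is also the start of the gene and for the other 3 is not, 5' to 3' on the strand of the gene, with capitals marking any match to the short motifs named after them.
Snrpa1, chr7:66060086-66060335, plus strand: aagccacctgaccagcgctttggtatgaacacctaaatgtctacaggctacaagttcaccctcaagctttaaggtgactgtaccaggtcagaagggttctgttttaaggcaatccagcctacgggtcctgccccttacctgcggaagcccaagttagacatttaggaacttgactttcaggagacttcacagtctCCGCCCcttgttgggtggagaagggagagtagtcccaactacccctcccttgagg
Srsf10, chr4:135855821-135856070, plus strand: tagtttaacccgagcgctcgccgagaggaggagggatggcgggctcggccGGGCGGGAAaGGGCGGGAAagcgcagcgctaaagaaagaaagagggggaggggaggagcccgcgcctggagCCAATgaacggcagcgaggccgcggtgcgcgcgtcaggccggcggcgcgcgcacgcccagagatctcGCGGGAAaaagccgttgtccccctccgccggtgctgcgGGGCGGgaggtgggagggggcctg
Srsf1, chr11:88047123-88047372, plus strand: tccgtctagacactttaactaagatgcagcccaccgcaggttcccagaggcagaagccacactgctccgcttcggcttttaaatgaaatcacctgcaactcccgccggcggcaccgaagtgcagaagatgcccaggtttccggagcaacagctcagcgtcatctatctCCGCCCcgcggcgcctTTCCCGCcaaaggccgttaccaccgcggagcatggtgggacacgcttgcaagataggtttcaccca
Srsf2, chr11:116853095-116853344, minus strand: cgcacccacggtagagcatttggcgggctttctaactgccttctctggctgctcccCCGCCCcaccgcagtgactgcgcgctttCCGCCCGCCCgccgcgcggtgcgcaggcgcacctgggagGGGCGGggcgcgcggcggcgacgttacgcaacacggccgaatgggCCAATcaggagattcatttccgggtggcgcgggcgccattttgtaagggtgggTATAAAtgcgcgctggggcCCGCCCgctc

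Each of 7 short motifs was searched on both strands and set against 17492 protein-coding genes. The ETS core, CCGGAAG, was present in 14 of the 42 windows (33.3%), against 9.18% of all genes. The Sp/KLF box, GGGCGG, was present in 28 (66.7%), against 42.3%. The NF-Y box, CCAAT, was present in 20 (47.6%), against 36.4%. The E2F core, TTCCCGC, was present in 5 (11.9%), against 4.98%, and can share bases with the Sp/KLF box, as it does at both upstream matches in Srsf10. The TATA box, TATAAA, was present in 4 (9.52%), against 12.4%. The NRF1 core, CGCATGCG, was present in 2 (4.76%), against 2.06%. The YY1 core, AAGATGGC, was present in 1 (2.38%), against 1.52%. Among the 9 windows of genes called lower, 4 held the ETS core, 7 the Sp/KLF box, 3 the NF-Y box, 2 the TATA box, 2 the E2F core (Srsf10 and Srsf1), 0 the NRF1 core and 0 the YY1 core. The median GC content was 60.4% in the 42 windows and 55.2% over all genes, and the windows held a median of 19 CpG dinucleotides, against 9 over all genes. The part of base composition in these shares was not tested. A match is a description of the sequence only.

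Among the Sf3a and Sf3b genes, 2 of 9 were lower (22.2%, against 13.6% of all tested genes). Sf3a3 encodes the SF3A60 subunit of the U2 snRNP. It had 562 and 612 at E14.5 and 890.0 and 876 at E11.5 (-0.58 ± 0.13, adjusted p = 0.011), and its other probe set fell further (-0.89 ± 0.13). The call of the brightest was lost without E14.5 replicate 1 (-0.52). Snrpa1 and Sf3a3 were the genes with more than 1 tested probe set in which every one was called lower. Sf3b3, which encodes a large scaffold protein of SF3B, had 738 and 681 at E14.5 and 966 and 1141 at E11.5 (-0.56 ± 0.14, adjusted p = 0.016), and was no longer called when either replicate 2, that of E14.5 (-0.50) or that of E11.5 (-0.44), was left out.

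The branch-point binding protein of the complex, Sf3b1, showed no difference beyond its error. It had 2223 and 2248 at E14.5 and 2206 and 2431 at E11.5, with groups that overlapped (-0.05 ± 0.12). Sf3a2 (0.03 ± 0.15), Sf3b4 (-0.07 ± 0.12) and Sf3b2 (-0.23 ± 0.13) did not pass. Sf3b5 and Sf3b6, small subunits of SF3B, had the most positive differences of all 46 genes, 0.37 ± 0.19 and 0.26 ± 0.13, without passing the test. Other tested probe sets of Sf3b6 gave -0.10 ± 0.13 and 0.54 ± 0.22 and did not pass. For Sf3b5 the E11.5 arrays lay far apart, at 2078 and 1395, against 1984 and 2459 at E14.5, and the groups overlapped. Without E11.5 replicate 1 its difference was 0.66 and passed, whereas its other tested probe set gave -0.21. Sf3a1 did not pass (-0.29 ± 0.13), although 1 dimmer probe set was called lower (-0.74).

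Of the 19 Hnrnp genes 2 were lower (10.5%, against 13.6% of all tested genes), and the median difference was -0.15. Hnrnph3, a relative of the hnRNP H and F splicing regulators, had 725 and 727 at E14.5 and 1088 and 1107 at E11.5. Replicates nearly coincided here (-0.59 ± 0.13, adjusted p = 0.0078). Hnrnpd, also called AUF1, binds AU-rich elements and affects the stability of mRNA. It had 2054 and 1764 at E14.5 and 3193 and 2468 at E11.5 (-0.56 ± 0.15, adjusted p = 0.023), and leaving out E14.5 replicate 2 (-0.45) ended its call, as did leaving out E11.5 replicate 1 (-0.37).

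The brightest Hnrnp genes did not pass the test in either direction. Hnrnpc, which binds uridine tracts and forms the core of the particle, had 4705 and 5183 at E14.5 and 4148 and 4105 at E11.5, so that the groups did not overlap (0.26 ± 0.12, adjusted p = 0.14). Hnrnpab had 4016 and 3866 at E14.5 and 4946 and 4460 at E11.5 (-0.25 ± 0.12), and Hnrnpu, a scaffold protein of the nucleus, had 3863 and 3643 at E14.5 and 4007 and 4812 at E11.5 (-0.23 ± 0.13). Hnrnpa2b1 (0.11 ± 0.12), Hnrnpdl (0.05 ± 0.12), Hnrnpk (-0.03 ± 0.12) and Hnrnpa1 (-0.27 ± 0.14) did not pass either. Under quantile normalization the signs of Hnrnpc (-0.04), Hnrnpa2b1 (-0.12) and Hnrnpdl (-0.16) turned. In that setting Hnrnpab and Hnrnpu were called lower, as were Hnrnpf and Hnrnpm. The remaining Hnrnp genes, which were Hnrnpa0, Hnrnpf, Hnrnph1, Hnrnph2, Hnrnpl, Hnrnpll, Hnrnpm, Hnrnpr, Hnrnpul1 and Hnrnpul2, had differences of -0.32 to 0.08.

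**Figure D2:**
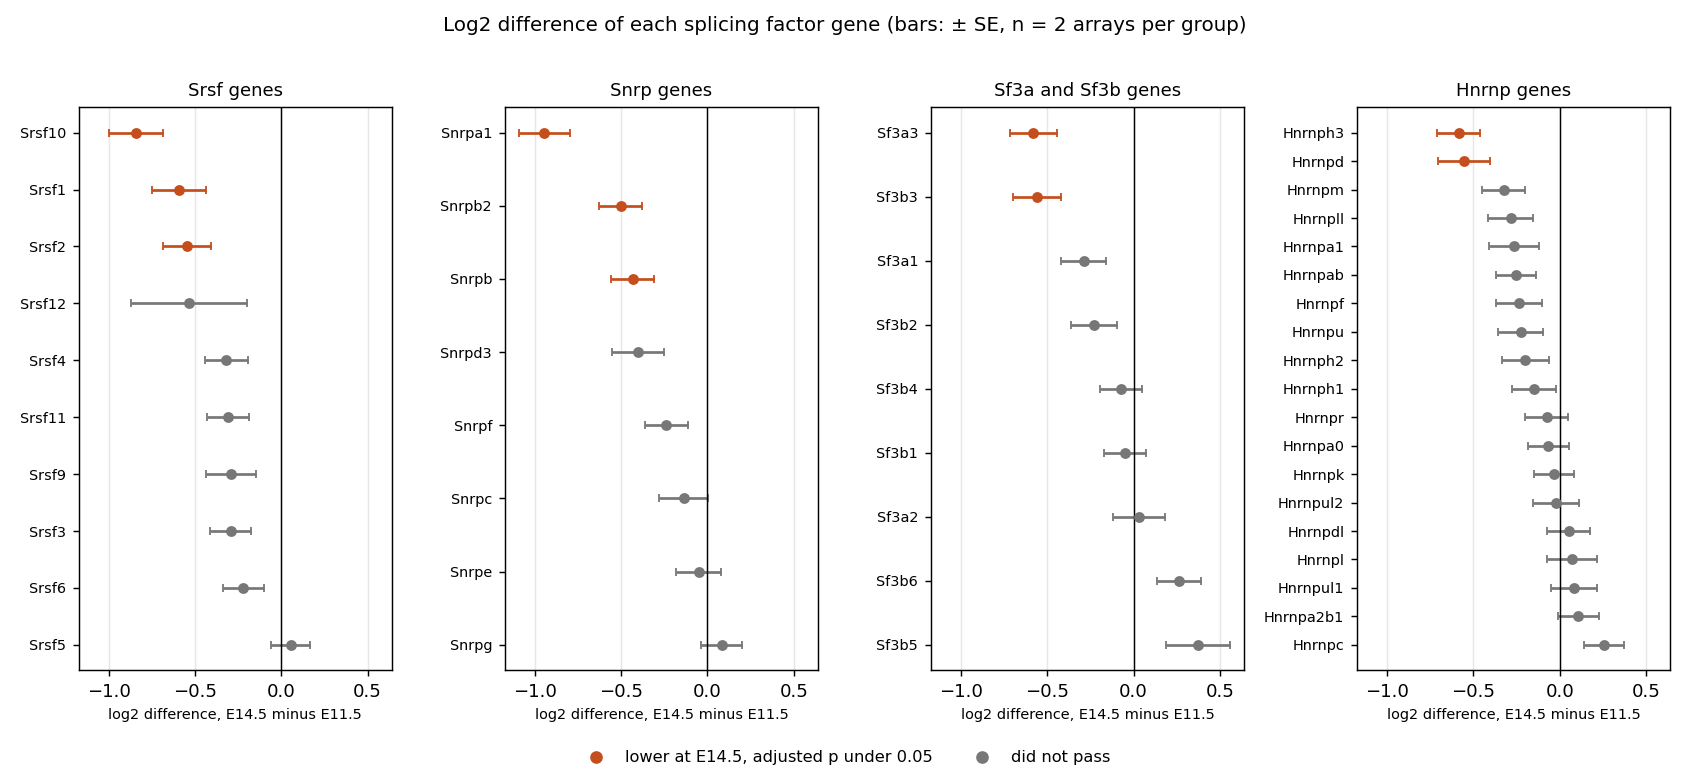
Log2 difference, E14.5 minus E11.5, of each tested gene with its SE as a bar (n = 2 arrays per group), in 1 panel per family; orange points passed the test. The Srsf panel lies below 0 in 9 of 10 genes and the Hnrnp panel in 14 of 19, and no point to the right of 0 passed.

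The probe sets of a gene often differed. Of 129 probe sets tested, 39 were lower and 0 higher in limma, while over all 27022 probe sets 12.6% were lower and 11.1% higher, 23.7% in all. At an unadjusted p under 0.05, 51 were lower and 1 was higher, beside 18.8% and 16.7% of all probe sets. The count of 39 was 16 without E14.5 replicate 2, 21 without the filter and 8 without the variance trend, and 1 probe set was called higher when either E11.5 array was left out. No gene had probe sets called in both directions. Counted by gene, 19 of the 46 (41.3%) had at least 1 probe set called lower, against 16.8% of all tested genes. Among genes with several tested probe sets, which have more chances of a call, these were 18 of 33 splicing factors (54.5%) and 23.3% of all genes. For 9 of the 19 the brightest did not pass: Hnrnpa1, Hnrnpab, Hnrnpdl, Hnrnpf, Hnrnpk, Hnrnpu, Sf3a1, Srsf3 and Srsf6. Hnrnpab gave -0.60 ± 0.11 at a probe set nearly as bright as its representative and -0.04 ± 0.12 at another, and Hnrnpdl had 3 of 7 probe sets called lower. With the probe sets of a gene averaged, 15 splicing factor genes were lower and 0 higher, beside 2000 lower and 1839 higher over all genes. That setting gained Hnrnpa1, Hnrnpab, Hnrnpdl, Hnrnpf, Sf3a1 and Srsf3 and lost Snrpb.

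In 23 of the 33 genes with several tested probe sets (69.7%), the brightest had a less negative or more positive difference than the median of the others. The same held for 61.5% of all 6095 such genes, and the median gap on the log2 scale was 0.13 in the splicing factors and 0.10 over all genes. The representatives were bright, with a median percentile of 97.4 among the mean signals of all probe sets. Whether signal saturation at bright probe sets, cross-hybridisation or differing transcript isoforms contributed was not tested. Of the 46 representatives 3 carry the suffix _x_at and 6 the suffix _s_at, which the manufacturer gives to probe sets that can also detect related sequences.

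**Figure D3:**
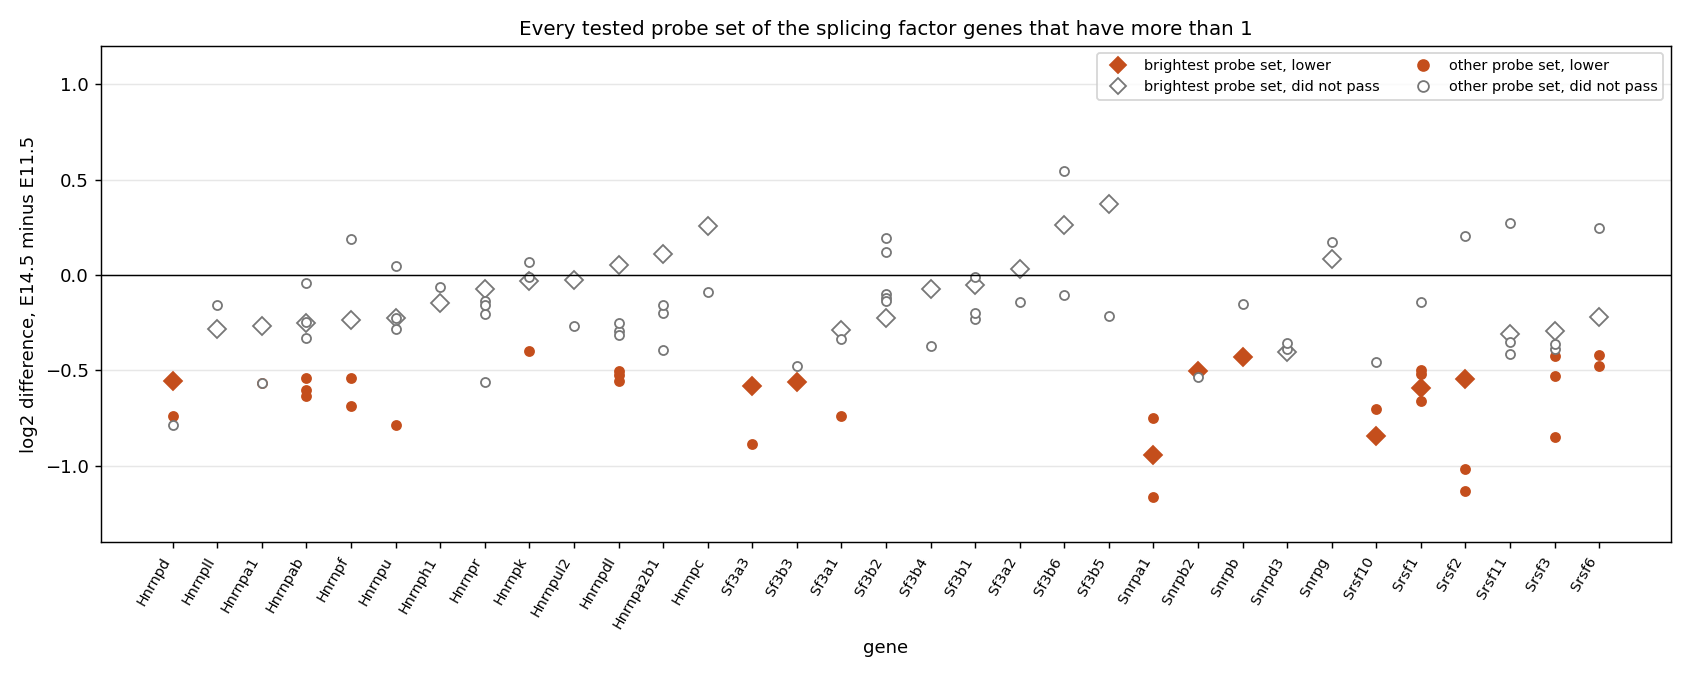
Log2 difference, E14.5 minus E11.5, of every tested probe set of the 33 genes that have more than 1; diamonds are the brightest probe set of a gene, circles the others, and filled orange symbols were called lower. Most circles lie under the diamond in Srsf2, Srsf3 and Hnrnpdl, and no symbol above 0 is filled.

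Other parts of the splicing machinery were read from lists of genes, 1 probe set per gene. The shares to set beside every list are those of all tested genes, 13.6% lower and 14.3% higher. Of 10 hnRNP proteins with other gene names 3 were lower and 0 higher in limma (also 3 and 0 at an unadjusted p under 0.05). These were Ptbp1, which represses neuronal exons in non-neuronal cells (mean scaled signals of 991 at E14.5 and 1836 at E11.5, -0.88 ± 0.13), Syncrip (-0.93 ± 0.15) and Raly (-0.97 ± 0.14). With the probe sets of a gene averaged, Ptbp1 did not pass (-0.37). The median of this list was -0.01. Of 30 proteins of the U1, U2 and U4/U6.U5 particles 2 were lower (6.67%, under the share of all tested genes) and 1 was higher. Those lower were Snrnp40 of the U5 particle (-0.85 ± 0.15) and the 3' splice site factor U2af1 (-0.50 ± 0.13). The 1 higher was Snrnp27 (0.43 ± 0.13, but -0.35 without scaling). The calls of U2af1 (-0.39) and Snrnp27 (0.30) were lost without E14.5 replicate 2, and that of Snrnp27 also without E11.5 replicate 2 (0.39). The number lower in this list was 7 with the probe sets of a gene averaged and 5 with quantile normalization or with the replicate number as a block. It was 4 without scaling and 1 without the variance trend, and it also rose when either E11.5 array was left out. Of 11 LSM genes, most of whose products (not those of Lsm14a and Lsm14b) form rings like that of the Sm proteins, Lsm2 (-0.97 ± 0.17), Lsm3 (-0.52 ± 0.12) and Lsm8 (-0.46 ± 0.13) were lower. Lsm2 alone of these was called without E14.5 replicate 2 and without the variance trend, and Lsm8 also lost its call without E14.5 replicate 1 or E11.5 replicate 1.

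The SR-related proteins and SR protein kinases had 5 of 20 genes lower and 1 higher, with a median of -0.28. The kinase Srpk1, which phosphorylates SR proteins in the cytoplasm, fell (-0.78 ± 0.14), as did Pnn (-0.81 ± 0.16) and Scaf4 (-0.70 ± 0.20). Clk1, a nuclear kinase of SR proteins, rose to 999 at E14.5 against 708 at E11.5 (0.49 ± 0.14, adjusted p = 0.030, but -0.28 without scaling). Without E14.5 replicate 2 the list had 2 lower and 0 higher, with Scaf4 (-0.54) and Clk1 (0.38) no longer called. It had 3 lower without E11.5 replicate 2, Scaf4 (-0.61) again not among them, and Clk1 was not called without E11.5 replicate 1 (0.42). Genes of the exon junction complex and of mRNA export had 2 of 15 lower, Ddx39a (-0.91 ± 0.15) and Nxt1 (-0.69 ± 0.14). This share of 13.3% was near the 13.6% of all tested genes. Genes of snRNP assembly had 2 of 17 lower (11.8%, also near that share), the SMN-complex helicase Ddx20 (-0.72 ± 0.17) and Wdr77 (-0.52 ± 0.14). Ddx20 was not called without E14.5 replicate 1 (-0.54), nor Wdr77 without E14.5 replicate 2 (-0.44) or E11.5 replicate 1 (-0.48), and neither was called without the variance trend. Proteins of the Prp19 complex and the catalytic steps had 0 of 28 lower in limma (2 at an unadjusted p under 0.05) and 1 higher, Xab2 (0.61 ± 0.18, but -0.15 without scaling), with a median of -0.05. Xab2 was not called without E14.5 replicate 2 (0.53) or E11.5 replicate 2 (0.35). Without E14.5 replicate 1 the list had 1 lower and 2 higher, and without E11.5 replicate 1 it had 2 higher.

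The list of tissue splicing regulators covered a wider range, with 14 of 29 lower and 2 higher and a median of -0.46. Not all of its genes are tissue-restricted: Elavl1, Tia1, Tial1, Celf1 and Khdrbs1 are broadly expressed. It shares Elavl3 and Elavl4, both called lower, with the neuronal markers given below. Celf5 (-2.95 ± 0.21), Celf4 (-2.65 ± 0.16) and Rbfox1 (-2.51 ± 0.21), all abundant in neurons, fell the most, and Mbnl2 (1.04 ± 0.15) and Nova1 (0.78 ± 0.17) rose. Without scaling neither of the last pair was called (0.28 and 0.01), and Nova1 was not called without E14.5 replicate 2 (0.58).

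**Figure D4:**
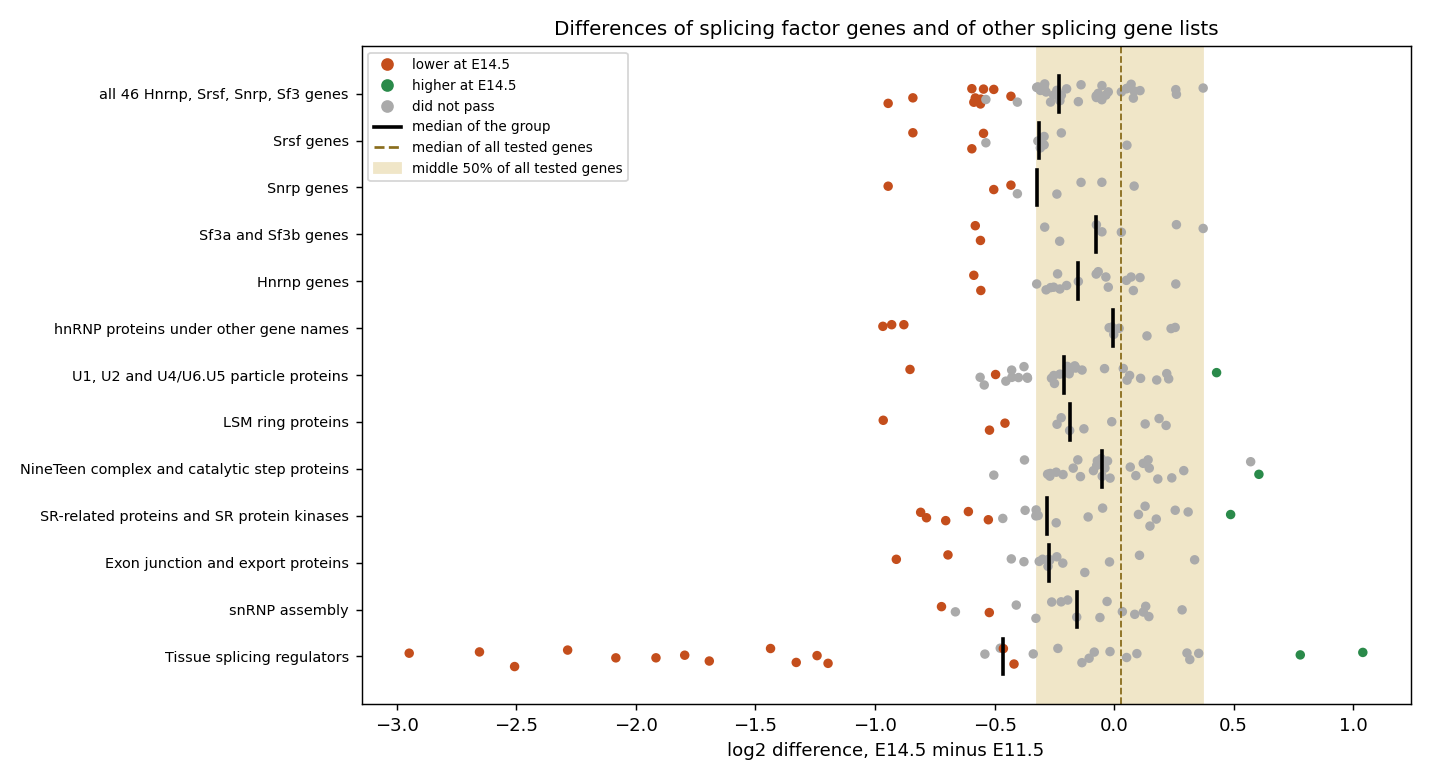
Log2 difference, E14.5 minus E11.5, of each gene in the splicing factor families and in the other splicing lists; orange points are called lower, green points higher, and a black bar is the median of each row. The dashed line is the median of all 12952 tested genes (0.03) and the shaded band their middle 50%, from -0.32 to 0.37; the families and most lists have medians between that line and the lower edge of the band, and tissue splicing regulators reach to -2.95.

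Signals of cell type and cell division markers also differed between the groups. Of 10 neuronal markers 9 were lower, with summed signals of 5283 and 5112 at E14.5 and 15168 and 15745 at E11.5. Of 11 markers of dividing cells 9 were lower, with sums of 13873 and 11796 at E14.5 and 20237 and 20451 at E11.5. All 6 oligodendrocyte precursor markers were higher, with sums of 16720.0 and 19048 at E14.5 and 859.5 and 622 at E11.5. All 7 tested astrocyte markers were higher too, with sums over these 7 of 14212 and 10711 at E14.5 and 1229 and 1444 at E11.5. Of 6 tested microglial markers 5 were higher, with sums over the 6 of 1262 and 1309 at E14.5 and 163 and 193 at E11.5. Of 5 meningeal markers 3 were lower, with sums of 588 and 526 at E14.5 and 1091 and 1128 at E11.5. Markers of endothelium and pericytes had 1 of 3 tested higher, Plvap. Kdr (-0.59 ± 0.30) and Rgs5 (-0.02 ± 0.34) did not pass. Sums over these 3 were 166 and 175 at E14.5 and 135 and 103 at E11.5. Over all 7 markers of this list, tested or not, they were 198 and 215 at E14.5 and 249 and 162 at E11.5, which overlapped. Erythroid markers had 2 of 2 tested lower, with sums over these 2 of 24.2 and 18.1 at E14.5 and 772 and 353 at E11.5. No marker was listed at 0 on any array. The part of these shifts in the splicing factor results was not tested, and in RNA from whole cultures fewer cells of a type and less RNA per cell cannot be told apart.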

How the data were processed

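The deposited file holds 1 linear intensity per probe set for each of 4 Affymetrix arrays, made by the authors in GCOS, as named per the submitters' processing notes. The GCOS version is not given in the sources used here. Groups and replicate numbers come from the sample titles. After 64 control probe sets were set aside, each array was scaled to a common 2% trimmed mean (174). The filter kept 27022 probe sets, those whose mean reached 27.3, the 40th percentile. A pseudocount of 12.8, the 25th percentile, was added before log2. The test was that of limma 3.58.1 under R 4.3.3 (lmFit, eBayes with a variance trend; 2 residual and 7.99 prior degrees of freedom), with Benjamini-Hochberg adjustment over all probe sets and a threshold of 0.05. The script was tested on simulated data.

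Genes were named from the platform annotation, on probe sets with 1 gene (34945, against 932 with several and 9160 with none). The members and lists were chosen with earlier results of these data known. The rule for naming takes called members, the 3 brightest uncalled members of each family, Snrpn, and up to 3 called genes per direction in each other splicing list; the other members named were added after their values were seen. Promoters used 1 window per gene, that at the annotated gene start where listed. Alternatives changed the scaling, pseudocount, filter, variance model, choice of probe set, replicate block and arrays included.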

Additional observations from a re-analysis of the deposited data

How the results depend on the processing

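Over the 10 genes called lower and 13 alternatives, 104 of 130 fits kept the direction and the call, 26 kept the direction only and 0 reversed; Snrpa1 and Srsf10 passed in all 13. Splicing factor genes lower numbered 19 with quantile normalization, 6 without the filter, 2 without the variance trend and 4 to 10 with 1 array left out, where 0 to 1 were higher. Over all genes, 1150 were higher and 1101 lower without the variance trend, and 255 were higher without scaling, which moved the median of all tested probe sets by -0.70. In the lists of other splicing genes 31 were lower in the main setting. This number was 21 without the variance trend, 29 without the filter, 35 without scaling and 40 with probe sets of a gene averaged. Over all tested genes 13.6% were lower and 14.3% higher in the main setting. Of the other splicing genes 5 were higher, against 2 with scaling to a common median, 0 without scaling, 2 without the filter, 1 without the variance trend and 1 to 7 with 1 array left out. Signs turned without scaling for Clk1 (-0.28), Hnrnpa2b1 (-0.67), Hnrnpc (-0.52), Hnrnpdl (-0.73), Hnrnpl (-0.70), Hnrnpul1 (-0.69), Sf3a2 (-0.74), Sf3b5 (-0.40), Sf3b6 (-0.51), Snrnp27 (-0.35), Snrpg (-0.69), Srsf5 (-0.72) and Xab2 (-0.15). With quantile normalization they turned for Hnrnpa2b1 (-0.12), Hnrnpc (-0.039), Hnrnpdl (-0.16), Sf3a2 (-0.032), Snrpg (-0.12) and Srsf5 (-0.17), and with scaling to a common median for Sf3a2 (-0.011). With probe sets averaged they turned for Hnrnpa2b1 (-0.16), Hnrnpdl (-0.34) and Sf3a2 (-0.056). With 1 array left out, the differences of 10 genes took either sign: Hnrnpdl (-0.056 to 0.16), Hnrnpk (-0.083 to 0.015), Hnrnpl (-0.071 to 0.21), Hnrnpr (-0.16 to 0.015), Hnrnpul1 (-0.048 to 0.21), Hnrnpul2 (-0.13 to 0.082), Sf3a2 (-0.15 to 0.22), Sf3b1 (-0.12 to 0.019), Snrpc (-0.31 to 0.037) and Snrpe (-0.18 to 0.078). None of these passed the test in the main setting apart from Clk1, Snrnp27 and Xab2. The signs that turned without scaling are to be read beside the shift of all tested probe sets in that setting, by -0.70 at the median. The cause of the other changes was not tested. Where 1 array was left out, the lone array was assumed to vary like the other group. With the replicate number as a block 11 splicing factor genes were lower and 0 higher. Deviations of same-numbered arrays correlated by 0.0041. With 2 arrays per group these deviations are 1 contrast per group, so they cannot decide whether same-numbered arrays were prepared together. Detection calls were not used here, so signal over background limits the dim genes Srsf12 and Snrpn.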
